A study of Canis lupus familiaris with 77 samples.

Results

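Lung and kidney of untreated male beagle dogs, about 10 months old, were compared by miR-seq, the sequencing of small RNA to count microRNAs (miRNAs). The comparison took every sample labelled lung (5) and every sample labelled kidney (5), 10 of the 76 libraries of 16 tissues that could be assigned to a label, and all 529 miRNAs with at least 1 read in them. The dogs were perfused with phosphate buffered saline before the organs were taken, and the labels give the same preparation for all 10 samples. The methods describe 5 dogs, but the labels do not say which libraries came from the same dog, so lung and kidney were not paired, and whole pieces of organ were used, so fewer cells of a type and less of an miRNA per cell cannot be told apart.

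miRNAs are short RNAs cut from hairpin precursors, and they guide Argonaute proteins to messenger RNAs, which are then translated less or degraded. Each hairpin has a 5p and a 3p arm, and hairpins that lie next to each other in the genome are often transcribed together. Lung is built of airway and alveolar epithelium around a dense capillary bed with many resident immune cells. Kidney consists mostly of tubule epithelium, which reabsorbs solutes and is rich in mitochondria. Names that begin with cfa are dog miRNAs, and names that begin with hsa or rno are loci placed in the dog genome from human or rat annotation. A library is called lung 1 to 5 or kidney 1 to 5 in the order of deposition, and this number was not used to pair libraries.

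The largest single difference between the organs in reads was cfa-miR-10b. It made up 29.8% to 54.8% of the reads on miRNAs in the kidney libraries (mean 42.3% ± 10.2, SD, n = 5) and 0.749% to 2.26% in the lung libraries (1.27% ± 0.609, SD, n = 5). The 10 most abundant miRNAs took 65.5% to 70.9% of a lung library and 76.8% to 86.7% of a kidney library. In lung the leading miRNAs were cfa-miR-143 (130161 ± 16273 RPM, SD, n = 5), cfa-miR-181a (108999 ± 13990 RPM), cfa-miR-10a (99027 ± 17358 RPM), cfa-miR-26a (77063 ± 21230 RPM) and cfa-miR-30a (68679 ± 12736 RPM), where RPM is the read count of an miRNA scaled to 1000000 reads on miRNAs. In kidney cfa-miR-10b was followed by cfa-miR-10a (91600 ± 7568 RPM), cfa-miR-30a (83643 ± 30990 RPM), cfa-miR-22 (44279 ± 19696 RPM) and cfa-miR-192 (44219 ± 9137 RPM).

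**Figure D1:**
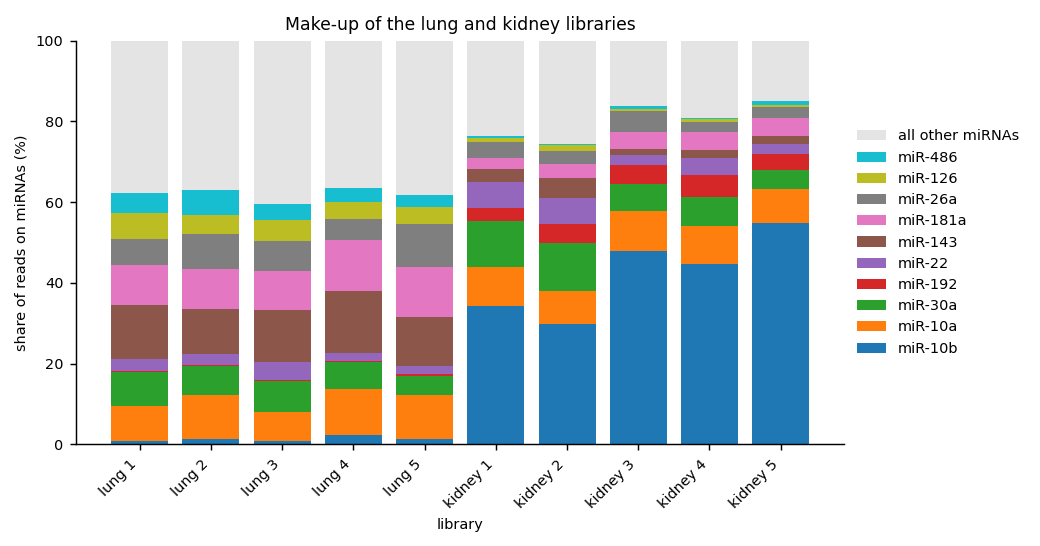
Each bar is 1 library and shows the share of its reads on miRNAs, in %, taken by 10 abundant miRNAs and by all others. The band of cfa-miR-10b covers 29.8% to 54.8% of each kidney library and at most 2.26% of a lung library.

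RPM is a share of the library, so the reads that cfa-miR-10b took in kidney lowered, by arithmetic, the RPM of the other kidney miRNAs. The comparison was therefore fitted on counts scaled by the trimmed mean of M values (TMM), which sets libraries to a common level over most miRNAs (factors 1.17 to 1.64 in lung and 0.542 to 0.986 in kidney). In edgeR's quasi-likelihood test 241 miRNAs had enough reads to be tested. With an adjusted p (Benjamini-Hochberg) under 0.05, 54 miRNAs (22.4% of those tested) were higher in lung and 69 (28.6%) were higher in kidney, with a median log2 fold change of -0.19 over all 241, positive values being higher in lung. On the scale of RPM, that is with library size alone, 115 were higher in lung and 27 in kidney, and the median was 0.75, a shift of 0.94. All 54 miRNAs called higher in lung and 27 of the 69 called higher in kidney were called in the same direction on both scales, and none turned to the other side. Below, a fold change is on the TMM scale unless RPM or library size is named.

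**Figure D2:**
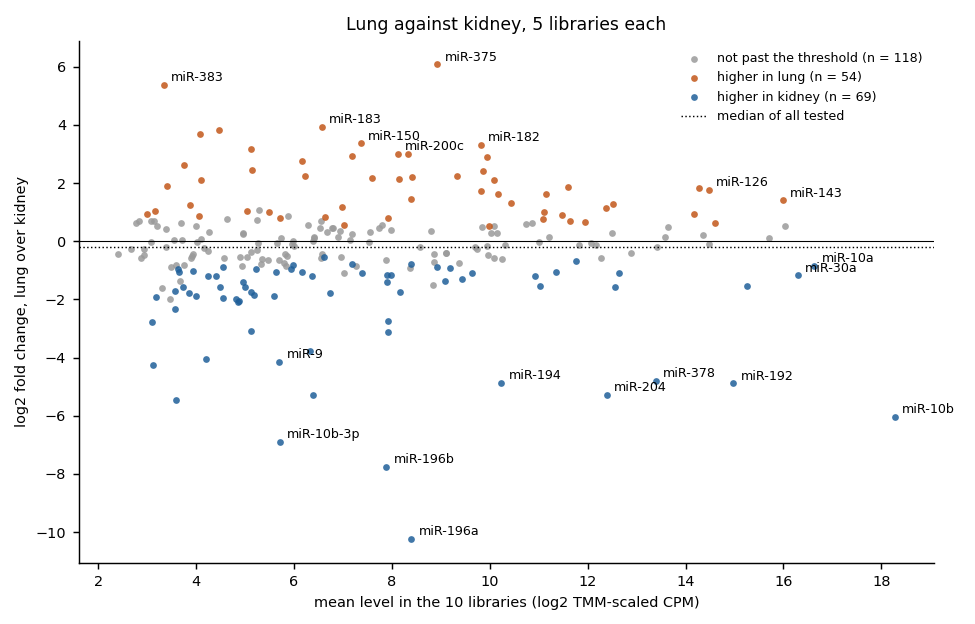
Each point is 1 of the 241 miRNAs tested, plotted by its mean TMM-scaled level in the 10 libraries (log2 CPM) and by its log2 fold change, lung over kidney. The 54 miRNAs higher in lung lie above 0 and the 69 higher in kidney below, with cfa-miR-375 and cfa-miR-196a at the ends and the median of all tested at -0.19. For cfa-miR-196a, cfa-miR-383 and hsa-miR-378e, with at most 3 reads in every library of 1 organ, the height depends on the prior count of the fit.

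The lung libraries held 860145 to 1943854 reads on miRNAs and the kidney libraries 1090108 to 6684616. Where an miRNA had no read, up to 3 could have been missed by chance, which is 1.54 to 3.49 RPM in a lung library and 0.449 to 2.75 RPM in a kidney library, which covers counting error only. Across miRNAs the Spearman correlation was 0.918 to 0.952 between lung libraries, 0.894 to 0.962 between kidney libraries and 0.847 to 0.911 between a lung and a kidney library. In the first 2 principal components, which held 74.4% and 13.4% of the variance, the first separated lung from kidney, and on the second kidney 1 (-12.24) and kidney 2 (-6.47) stood apart from kidney 3 to 5 (4.99 to 7.01). The study's supplement states that some kidney samples had low RNA integrity. Which they were is not given in the sources used here, and its part in the results was not tested. With kidney 1 and kidney 2 left out, an alternative added after the values were seen, 65 miRNAs were higher in lung and 74 in kidney.

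Of the lists described here, the miRNAs of the HOX gene clusters had the median farthest from 0. HOX genes set positions along the body axis, and their clusters also hold the genes of miR-10 and miR-196. In the RefSeq gene table of another dog assembly MIR10B has HOXD3 and HOXD8 as its nearest named genes, MIR196B has HOXA9 and HOXA10, the MIR196A genes lie beside HOXB9 and HOXC10, and MIR10A lies inside HOXB3. cfa-miR-196a had 753, 533, 378, 473 and 336 RPM in the 5 kidney libraries, in the order 1 to 5, and 0, 2.23, 1.03, 0 and 0 RPM in the 5 lung libraries. No lung library had more than 3 reads of it, so kidney was at least 200.0-fold higher in RPM than the level of 3 reads per library. cfa-miR-196b had 344, 289, 277, 447 and 304 RPM in kidney and 3.49, 5.21, 1.03, 4.54 and 1.70 RPM in lung (log2 fold change -7.76, SE 0.45, adjusted p = 5.14e-08). For both miR-196 members the lowest kidney value was far above the highest lung value.

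cfa-miR-10b had 343161, 297875, 478946, 445638 and 547844 RPM in kidney and 7938, 12107, 7490, 22592 and 13297 RPM in lung (log2 fold change -6.03, SE 0.53, adjusted p = 1.93e-06), a 65.2-fold difference. The groups were wide apart. Its other arm, hsa-miR-10b-3p, had 63.3, 64.9, 63.7, 83.6 and 84.5 RPM in kidney and 0, 0, 2.06, 3.41 and 0.566 RPM in lung (log2 fold change -6.89, SE 0.60, adjusted p = 1.93e-06). cfa-miR-10a was abundant in both organs, with RPM of 88197, 110172, 73731, 113938 and 109098 in lung and 95599, 82800, 100359, 94677 and 84567 in kidney. These ranges overlapped. On the TMM scale cfa-miR-10a was called higher in kidney (log2 fold change -0.84, SE 0.25, adjusted p = 0.0122), and with library size alone its value turned to 0.11 (adjusted p = 0.623). The fit over all 16 tissues kept the sign but not the call (-0.77, adjusted p = 0.402). The mature miR-10a and miR-10b differ little in sequence, and so do miR-196a and miR-196b. How reads were divided between such pairs could not be resolved from counts. In all, 6 of the 9 detected miRNAs of the list were tested, all 6 were called higher in kidney (median log2 fold change -6.46, also with cfa-miR-196a at its lower bound, against -0.19 over all tested), and 4 of them were called with library size alone, where cfa-miR-10a and hsa-miR-10a-3p were not.

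**Figure D3:**
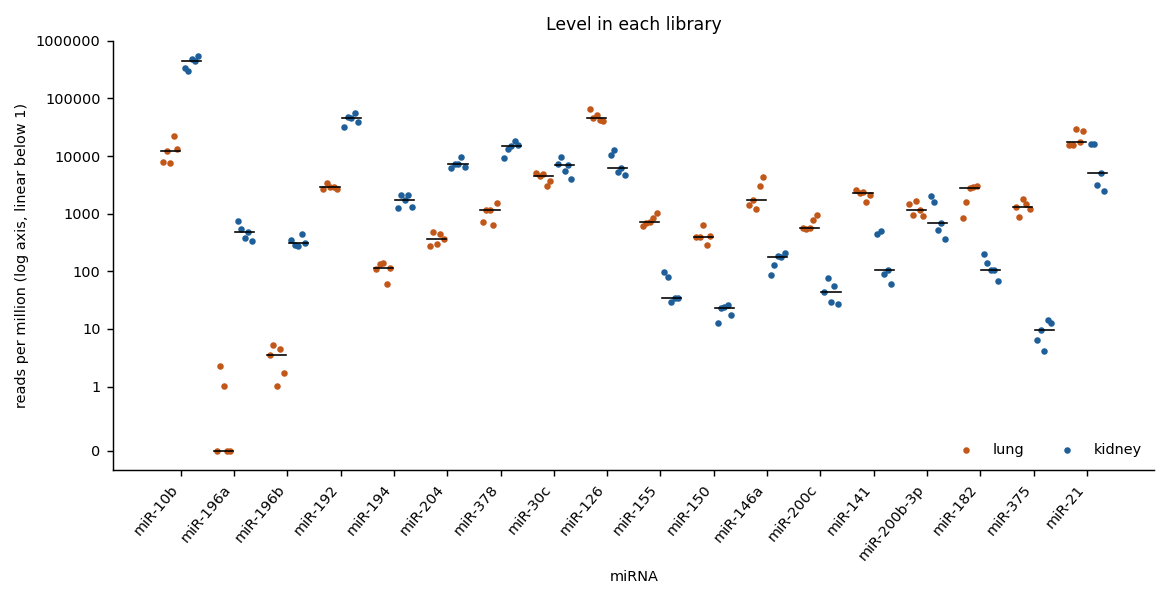
Points are the RPM of single libraries (log axis, linear below 1) for 18 miRNAs, lung and kidney side by side, and bars are medians over 5 libraries. cfa-miR-196a is at 0 in 3 lung libraries and at 336 RPM or more in each kidney library, and cfa-miR-375 shows the opposite order, with at most 14.2 RPM in kidney.

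miRNAs known from the tubule epithelium of the kidney were higher there. miR-192 and miR-215 share a seed, the stretch that pairs with targets, and MIR215 and MIR194 are neighbours inside IARS2 in the RefSeq table. cfa-miR-192 had 31926, 47962, 46094, 56012 and 39101 RPM in kidney and 2627, 3456, 2879, 2891 and 2722 RPM in lung (log2 fold change -4.89, SE 0.25, adjusted p = 2.27e-08). cfa-miR-194 had 1238, 2075, 1735, 2069 and 1286 RPM in kidney and 110.4, 136, 139, 60.2 and 116 RPM in lung (log2 fold change -4.87, SE 0.25, adjusted p = 2.27e-08). Their folds, 29.6 and 29.3, lay within 1 SE of each other. cfa-miR-215 was scarce in both organs, at 21.1 to 54.9 RPM in kidney and 2.33 to 32.02 RPM in lung (log2 fold change -2.05, SE 0.51, adjusted p = 0.00434). The organs overlapped in RPM for cfa-miR-215, and its call was lost with library size alone (adjusted p = 0.0986) and in the fit over all 16 tissues (0.0553).

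cfa-miR-204, whose gene lies inside TRPM3, had 6267, 7284, 7234, 9751 and 6563 RPM in kidney and 269.7, 472, 299.9, 437 and 367 RPM in lung (log2 fold change -5.27, SE 0.30, adjusted p = 4.88e-08). The lowest kidney value, 6267 RPM, was far above the highest lung value. Of the list, 4 of 8 detected miRNAs were tested and all 4 were called higher in kidney (median log2 fold change -4.88). The list's other detected members were too scarce to test. Among them cfa-miR-802 reached 2.03 RPM in kidney and had no read in lung. In kidney the summed level of the list was 39477 to 67895 RPM and in lung 3011 to 4097 RPM, so lung also held these miRNAs, mostly as cfa-miR-192.

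The miR-378 family, known from tissues rich in mitochondria and carried in the gene PPARGC1B, was higher in kidney. cfa-miR-378 had 9272, 13182, 14852, 18418 and 15767 RPM in kidney and 722, 1150, 1156, 637 and 1505 RPM in lung (log2 fold change -4.81, SE 0.35, adjusted p = 4.43e-07), and the other arm of its hairpin, hsa-miR-378a-5p, had 51.4, 47.4, 142, 139 and 156 RPM in kidney and 2.33, 2.98, 7.72, 3.41 and 10.8 RPM in lung (log2 fold change -5.30, SE 0.63, adjusted p = 2.21e-05). Neither overlapped, and in kidney 1 and kidney 2 both arms stood below the other 3 kidney libraries. The third member tested, hsa-miR-378e, is nearly the same sequence as miR-378 and its reads cannot be told apart from those of miR-378 in counts. In lung it had at most 2 reads in a library, and kidney was at least 6.96-fold higher. All 3 tested members of 6 detected were called (median -5.30, or -4.81 with hsa-miR-378e at its lower bound).

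The miR-30 family, abundant in epithelium, was split between scales. Of 10 tested members (11 detected), 7 were called higher in kidney and 3 were not past the threshold (median -1.14). With library size alone 3 were called higher in kidney and 2 higher in lung (median -0.25). The calls that held on both scales were cfa-miR-30c, hsa-miR-30a-3p and hsa-miR-30c-2-3p. hsa-miR-30a-3p had 2000, 1982, 1935, 2309 and 2485 RPM in kidney and 1293, 1546, 1213, 1496 and 1726 RPM in lung (log2 fold change -1.54, SE 0.24, adjusted p = 1.79e-04), and hsa-miR-30c-2-3p had 296, 319.7, 298, 336 and 313 and 185, 181, 204, 175 and 173 RPM (log2 fold change -1.75, SE 0.19, adjusted p = 1.09e-05). Both were without overlap, though the step between the groups was small. cfa-miR-30c had 3993 to 9448 RPM in kidney and 3069 to 5053 RPM in lung, which overlapped (log2 fold change -1.56, SE 0.14, adjusted p = 2.69e-06).

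The most abundant member, cfa-miR-30a, had 113905, 118356, 65888, 72089 and 47978 RPM in kidney and 81888, 71735, 74471, 67350 and 47951 RPM in lung. The RPM overlapped, and the call for kidney (log2 fold change -1.17, SE 0.20, adjusted p = 2.86e-04) was lost with library size alone (-0.28, adjusted p = 0.379). cfa-miR-30b (-1.19, SE 0.18) and hsa-miR-30e-5p (-1.10, SE 0.29) likewise held on the TMM scale only, and hsa-miR-30e-5p lost its call without lung 4 (adjusted p = 0.0626). cfa-miR-30d, at 17747 ± 3190 RPM in lung and 8655 ± 2714 RPM in kidney (SD, n = 5), was not called on the TMM scale (0.13, SE 0.15, adjusted p = 0.467) and was called higher in lung with library size alone (1.04, adjusted p = 0.00183). cfa-miR-30e was not called either (-0.40, SE 0.20), and with library size alone it turned to 0.55 (adjusted p = 0.0202), higher in lung. The tested members of the family ranged from -1.75 to 0.13.

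Also higher in kidney among the largest differences was hsa-miR-1307-5p, at 461, 447, 241, 223 and 209.7 RPM in kidney and 121, 87.1, 113, 59.1 and 62.8 RPM in lung (log2 fold change -2.75, SE 0.24, adjusted p = 1.93e-06). Kidney 1 and kidney 2 held the highest values, and no lung library reached the lowest kidney value. cfa-miR-22, among the most abundant in kidney, was called higher there (log2 fold change -1.54, SE 0.23, adjusted p = 1.31e-04) on the TMM scale only. Its RPM overlapped, and library size alone gave -0.63 (adjusted p = 0.112). cfa-miR-9, a miRNA of neurons taken along as a marker of brain, had 103, 137, 54.2, 52.5 and 36.1 RPM in kidney and 1.16, 6.70, 12.3, 7.95 and 9.05 RPM in lung (log2 fold change -4.15, SE 0.43, adjusted p = 7.17e-06). The groups did not overlap. The other 3 detected miRNAs of the brain list were too scarce to test in the fit of the 2 organs. cfa-miR-124 was at or under 1.03 RPM in all 10 libraries, hsa-miR-124-5p had 3.49, 2.23, 1.54, 2.27 and 1.13 RPM in lung and no read in kidney, and hsa-miR-9-3p had 0, 0, 1.03, 0 and 0.566 RPM in lung and 0.917, 2.24, 5.42, 2.59 and 0.771 RPM in kidney. In the fit over all 16 tissues, which tested all 4, 1 was called for lung and 2 for kidney. cfa-miR-9 reached a median of 38121 RPM in brain.

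In lung the largest difference was cfa-miR-375, a miRNA of endocrine cells such as pancreatic islet cells and of the neuroendocrine cells of the airway. It had 1315, 889, 1769, 1497 and 1209 RPM in lung and 6.42, 9.72, 4.07, 14.2 and 12.7 RPM in kidney (log2 fold change 6.07, SE 0.39, adjusted p = 1.40e-07), a 67.4-fold difference with no overlap. Of the 3 detected miRNAs of its list only cfa-miR-375 was tested. cfa-miR-7 and hsa-miR-7-1-3p were too scarce, with medians of 8.14 and 5.66 RPM in lung and 3.11 and 3.89 RPM in kidney. The pancreas miRNAs miR-216 and miR-217 were together at no more than 1.49 RPM in any of the 10 libraries. cfa-miR-383 was at most 2 reads in every kidney library and at 11.3 to 40.7 RPM in lung, at least 20.5-fold above the level of 3 reads per kidney library. Its level was under the 100 RPM asked of the named miRNAs, and it was chosen after its values were seen.

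The cluster of miR-183, miR-96 and miR-182, transcribed as 1 unit and known from sensory and other specialised epithelium, was higher in lung. cfa-miR-182 had 848, 1602, 2764, 2922 and 3033 RPM in lung and 200.0, 137, 104, 106 and 67.3 RPM in kidney (log2 fold change 3.31, SE 0.38, adjusted p = 1.60e-05), and cfa-miR-183 had 94.2, 159, 317, 268 and 388 and 12.8, 9.42, 7.46, 8.29 and 5.79 RPM (log2 fold change 3.93, SE 0.41, adjusted p = 7.17e-06). In lung 1 both were lowest of the lung libraries and in kidney 1 highest of the kidney libraries, and the groups stayed apart. cfa-miR-96 was too scarce to test, at up to 10.2 RPM in lung and 0.678 RPM in kidney.

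The miR-200 family marks epithelium and keeps it from turning mesenchymal by holding down ZEB1 and ZEB2. It is encoded in a pair of clusters, MIR200C with MIR141 and MIR200B with MIR200A and MIR429, which are described in turn. cfa-miR-200c had 560.4, 550.2, 559, 784 and 932 RPM in lung and 43.1, 77.9, 29.2, 55.9 and 26.8 RPM in kidney (log2 fold change 3.01, SE 0.28, adjusted p = 3.26e-06). cfa-miR-141 had 2573, 2262, 2392, 1616 and 2096 RPM in lung and 445, 497, 90.2, 104 and 60.9 RPM in kidney (log2 fold change 2.42, SE 0.45, adjusted p = 6.10e-04). Neither overlapped, although cfa-miR-141 was several times higher in kidney 1 and kidney 2 than in the other kidney libraries, and its call was lost in the fit over all 16 tissues (2.46, adjusted p = 0.0605). hsa-miR-141-5p was also called for lung (log2 fold change 1.90, SE 0.49, adjusted p = 0.0062).

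Of the other cluster, hsa-miR-200b-3p had 1472, 931, 1656, 1147 and 896 RPM in lung and 2018, 1562, 511, 679 and 363 RPM in kidney (log2 fold change -0.59, SE 0.34, adjusted p = 0.155). The groups overlapped. cfa-miR-429 had 456, 276, 409, 228 and 247 RPM in lung and 736, 554, 136, 181 and 122 RPM in kidney (log2 fold change -0.93, SE 0.40, adjusted p = 0.0718), again with overlap, and it was called for kidney without kidney 3 (0.0499) or kidney 5 (0.0438). hsa-miR-200a-3p was called higher in kidney (log2 fold change -0.87, SE 0.28, adjusted p = 0.0206), but the call was lost with library size alone (-0.03), in the fit over all tissues (adjusted p = 0.499) and without any one of kidney 1, kidney 2, lung 2, lung 3, lung 4 or lung 5 (adjusted p 0.0575 to 0.102). In these members too, kidney 1 and kidney 2 held the highest kidney values. Of 8 members tested, 3 were higher in lung, all from the MIR200C and MIR141 pair, 1 was higher in kidney and 4 were not past the threshold (median -0.30), and in the fit over all 16 tissues 1 was called, cfa-miR-200c in lung. The difference between the clusters was not tested as such.

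Other epithelial miRNAs were scarcer. cfa-miR-205, of basal and squamous epithelium, had 75.6, 46.9, 90.03, 92.01 and 127 RPM in lung and 2.75, 4.04, 4.07, 11.1 and 2.12 RPM in kidney (log2 fold change 3.16, SE 0.47, adjusted p = 1.31e-04), and cfa-miR-203 had 84.4 ± 24.7 RPM in lung and 21.5 ± 4.31 RPM in kidney (SD, n = 5; log2 fold change 1.02, SE 0.23, adjusted p = 0.003). The call of cfa-miR-203 was lost with libraries thinned to the smallest (adjusted p = 0.156) and in the fit over all tissues (0.224). Of the miRNAs of ciliated airway cells, cfa-miR-34c had 23.3, 63.3, 28.8, 151 and 72.99 RPM in lung and 42.2, 17.1, 8.14, 24.2 and 4.63 RPM in kidney (log2 fold change 1.08, SE 0.63, adjusted p = 0.16). It did not pass the threshold on the TMM scale and was called for lung with library size alone (1.85, adjusted p = 0.0212). cfa-miR-449a was too scarce to test, at 0.514 to 43.2 RPM in lung and 0 to 10.1 RPM in kidney. cfa-miR-34a, a target of p53 not limited to ciliated cells, was higher in lung (212, 153, 176, 149 and 172 RPM against 25.7, 26.5, 10.2, 22.6 and 13.5 RPM in kidney, log2 fold change 2.22, SE 0.23, adjusted p = 7.24e-06).

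**Figure D4:**
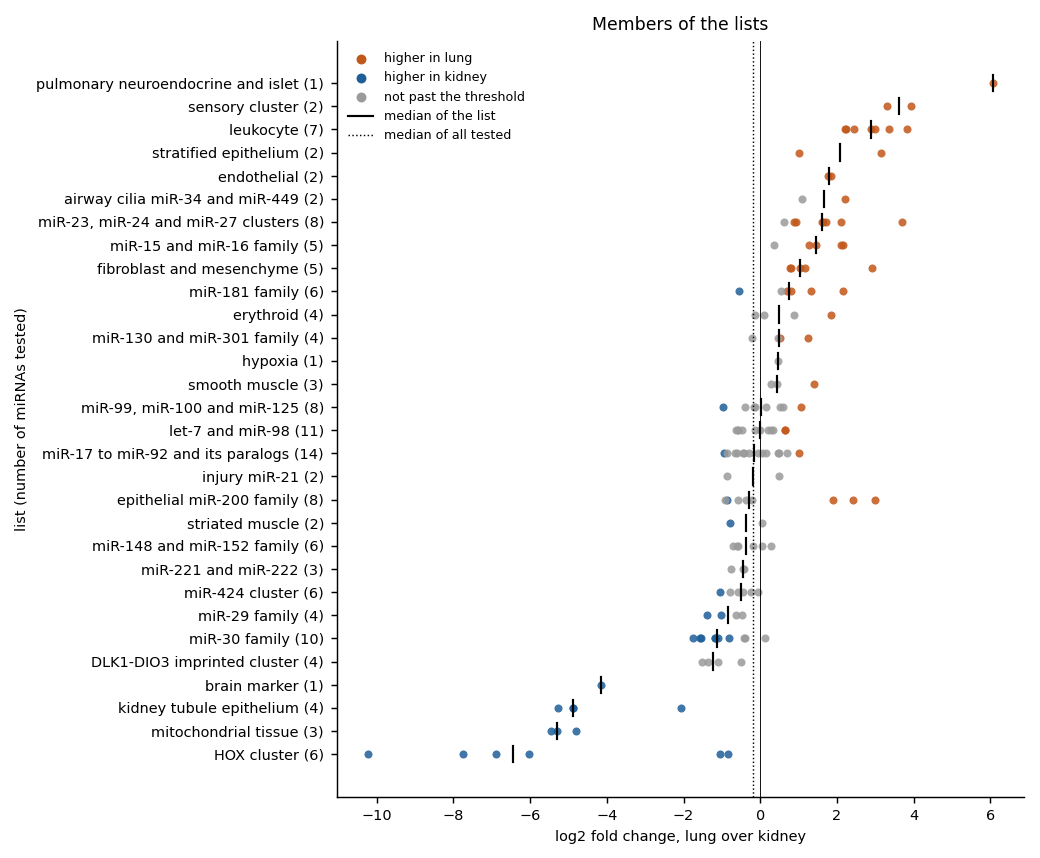
Each point is the log2 fold change, lung over kidney, of 1 tested miRNA of a list, coloured by its call, with the list's median as a bar and the median of all 241 tested miRNAs (-0.19) as a dotted line. Lists are ordered by their median, from 6.07 for cfa-miR-375 alone to -6.46 for the HOX clusters.

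The endothelial miR-126, carried in an intron of EGFL7 and needed for vessel integrity, was higher in lung in both arms. cfa-miR-126 had 64176, 46480, 50505, 42512 and 40874 RPM in lung and 10547, 12688, 5335, 6254 and 4608 RPM in kidney (log2 fold change 1.76, SE 0.19, adjusted p = 1.25e-05), and hsa-miR-126-3p had 8931, 7122, 7581, 5022 and 5239 and 1389, 1546, 714, 819 and 604 RPM (log2 fold change 1.85, SE 0.19, adjusted p = 7.17e-06). Neither overlapped, and the arms gave folds of 3.39 and 3.60. Kidney 1 and kidney 2 were the highest of the kidney libraries in both.

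All 7 tested leukocyte miRNAs (8 detected) were higher in lung, with a median log2 fold change of 2.89, against 22.4% of all tested miRNAs called for lung. They were called with library size alone as well, as were all 54 lung calls and 115 of all 241 tested. cfa-miR-150, of mature lymphocytes, had 399.9, 399, 646, 291 and 407 RPM in lung and 12.8, 23.5, 23.7, 25.9 and 17.6 RPM in kidney (log2 fold change 3.36, SE 0.27, adjusted p = 9.91e-07). cfa-miR-155, induced in activated lymphocytes and macrophages, had 612, 699, 716, 838 and 1047 RPM in lung and 95.4, 78.7, 29.8, 33.8 and 35.1 RPM in kidney (log2 fold change 3.002, SE 0.31, adjusted p = 7.17e-06). The groups were apart in both. cfa-miR-146a, a brake on inflammatory signalling, had 1436, 1736, 1194, 2980 and 4273 RPM in lung and 85.3, 126, 187, 178 and 209.7 RPM in kidney (log2 fold change 2.89, SE 0.48, adjusted p = 2.86e-04).

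The pan-leukocyte cfa-miR-142 gave 4.72-fold (log2 fold change 2.24, SE 0.31, adjusted p = 9.06e-05) with 704 to 2136 RPM in lung and 85.6 to 272 RPM in kidney. The myeloid cfa-miR-223 had 83.7, 35.7, 93.6, 23.9 and 59.98 RPM in lung and 3.67, 3.44, 2.71, 1.90 and 0.386 RPM in kidney (log2 fold change 3.82, SE 0.47, adjusted p = 2.94e-05). cfa-miR-146b varied widely within lung, from 223 to 1395 RPM, and was still above kidney throughout (log2 fold change 2.22, SE 0.57, adjusted p = 0.00531). The summed level of the leukocyte list was 4754 to 8452 RPM in lung and 404 to 565 RPM in kidney.

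Of 4 tested miRNAs of red blood cells, 1 was called for lung and 3 were not past the threshold (median 0.49). cfa-miR-486, whose arms are merged under 1 name in the table, had 49198, 62197, 40370, 34219 and 30188 RPM in lung and 5712, 3148, 6043, 4170 and 9439 RPM in kidney (log2 fold change 1.84, SE 0.39, adjusted p = 0.00175). cfa-miR-451, the most specific of them, had 5215, 9124, 5485, 926 and 3889 RPM in lung and 2006, 1197, 3020, 1834 and 4194 RPM in kidney (log2 fold change -0.13, SE 0.54, adjusted p = 0.856), with overlap. cfa-miR-144 from the same precursor region had 0.10 (SE 0.58) and hsa-miR-144-5p 0.88 (SE 0.47), neither past the threshold. hsa-miR-144-5p was called for lung with library size alone (1.85, adjusted p = 0.00687) and without kidney 1 (adjusted p = 0.0455), lung 4 (0.0444) or lung 5 (0.0443). In plasma the medians were 82461 RPM for cfa-miR-451 and 579253 RPM for cfa-miR-486.

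Of the smooth muscle pair, cfa-miR-143 was the most abundant miRNA of lung, at 134408, 110989, 129906, 154459 and 121043 RPM, and had 30646, 49213, 16153, 19870 and 20045 RPM in kidney (log2 fold change 1.41, SE 0.23, adjusted p = 2.30e-04). Its neighbour cfa-miR-145 had 1568, 1646, 1377, 1783 and 2159 RPM in lung and 601, 618, 578, 846 and 872 RPM in kidney (log2 fold change 0.29, SE 0.27, adjusted p = 0.358). In RPM neither overlapped, but on the TMM scale cfa-miR-143 was called and cfa-miR-145 was not, and with library size alone both were called. The 5 tested miRNAs of fibroblasts and mesenchyme were all higher in lung (median 1.03), against 22.4% of all tested miRNAs. Like all 54 lung calls, they were also called with library size alone. The largest difference was hsa-miR-199b-5p with 367, 318, 532, 273 and 338 RPM in lung and 7.34, 21.4, 22.4, 53.2 and 14.5 RPM in kidney (log2 fold change 2.92, SE 0.43, adjusted p = 1.31e-04). The shared 3p arm, named cfa-miR-199, differed by 1.70-fold (log2 fold change 0.77, SE 0.16, adjusted p = 0.00123). In the fit over all 16 tissues 1 of the 5 was called, and cfa-miR-214 lost its call without kidney 2 (adjusted p = 0.0575) or without lung 5 (0.0524).

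Among families that many tissues share, miR-23, miR-24 and miR-27 stood higher in lung in 7 of 8 tested members (median 1.62). cfa-miR-24 had 1246, 1981, 1463, 2240 and 2440 RPM in lung and 261, 270.5, 309, 323 and 302 RPM in kidney (log2 fold change 1.72, SE 0.28, adjusted p = 2.83e-04), and cfa-miR-23a 3280, 5753, 3891, 4001 and 6767 and 713, 1018, 849, 815 and 612 RPM (log2 fold change 1.64, SE 0.23, adjusted p = 1.04e-04). These groups did not overlap. cfa-miR-27b, the most abundant, gave 1.92-fold (log2 fold change 0.94, SE 0.19, adjusted p = 9.49e-04), and cfa-miR-23b did not pass (0.61, SE 0.30, adjusted p = 0.101). It was called for lung with library size alone (1.57, adjusted p = 2.74e-04), with the reads of cfa-miR-10b taken out of the library size (adjusted p = 0.0314) and without kidney 3 (0.0482), lung 3 (0.0427) or lung 4 (0.0402). The miR-15 and miR-16 family, which restrains the cell cycle, was higher in lung in 4 of 5 tested members (median 1.47). Its largest differences were cfa-miR-15b (527, 648, 558, 555 and 899.7 RPM in lung, 81.6, 81.2, 93.6, 61.1 and 56.5 RPM in kidney, log2 fold change 2.15, SE 0.25, adjusted p = 1.60e-05) and cfa-miR-195 (2396, 2713, 2058, 2309 and 2727 RPM and 374, 417, 256, 243 and 235 RPM, log2 fold change 2.10, SE 0.17, adjusted p = 1.34e-06). cfa-miR-497, the neighbour of cfa-miR-195, gave 2.76-fold (log2 fold change 1.47, SE 0.32, adjusted p = 0.00187), and cfa-miR-15a was called with library size alone (1.29, adjusted p = 0.00935) but not on the TMM scale (0.37, SE 0.27, adjusted p = 0.263).

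Of the miR-181 family, 4 of 6 tested members were higher in lung and 1 in kidney (median 0.75). cfa-miR-181d gave 4.46-fold (log2 fold change 2.16, SE 0.29, adjusted p = 7.35e-05) and cfa-miR-181c 2.50-fold (log2 fold change 1.32, SE 0.13, adjusted p = 5.59e-06). cfa-miR-181a, second in abundance in lung, had 100568, 99464, 96517, 125102 and 123344 RPM in lung and 27882, 34559, 39831, 44452 and 42729 RPM in kidney. The RPM did not overlap, yet on the TMM scale it was not called (0.54, SE 0.27, adjusted p = 0.105), while it was called with library size alone (1.52, adjusted p = 1.50e-05) and without kidney 5 (0.0391). The member called for kidney, hsa-miR-181a-3p, lost its call under 15 of 19 alternatives, each of kidney 2 to 5 and lung 2 to 5 left out among them (adjusted p 0.0835 to 0.274), and turned to 0.41 with library size alone. cfa-miR-138a, a miRNA of neurons and endothelium, had 184, 121, 303, 206 and 73.6 RPM in lung and 9.17, 8.38, 3.39, 28.3 and 13.5 RPM in kidney (log2 fold change 2.75, SE 0.53, adjusted p = 8.58e-04), with no overlap.

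Other lists had few called members, where 22.4% of all tested miRNAs were called for lung and 28.6% for kidney. For let-7 and miR-98, which slow cell growth, 2 of 11 tested members were higher in lung and 9 were not past the threshold (median -0.01). The 2 were cfa-let-7a (0.64, SE 0.20) and cfa-let-7b (0.65, SE 0.24), and cfa-let-7b lost its call without any one of kidney 1, kidney 2, kidney 3, kidney 4 or lung 5 (adjusted p 0.0505 to 0.0746). With library size alone 7 of the 11 were called for lung, on a scale where 115 of all 241 tested miRNAs were. For miR-17 to miR-92 and its paralogs 1 of 14 was higher in lung, cfa-miR-25 (1.01, SE 0.17), and 1 in kidney (median -0.17). For miR-99, miR-100 and miR-125 it was 1 of 8 each way (median 0.01), and for miR-130 and miR-301, 2 of 4 in lung (median 0.49), the more abundant being cfa-miR-130a (0.52, SE 0.13). With DESeq2 size factors in edgeR, 3 of the miR-17 to miR-92 list were called for lung and 1 for kidney. cfa-miR-93 (adjusted p = 0.0312) and hsa-miR-106b-3p (0.0328) were among those called for lung there.

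Of the miR-29 family, which holds down collagens, 2 of 4 were higher in kidney (median -0.84), and cfa-miR-29c (-1.40, SE 0.41) lost its call with library size alone (-0.55, adjusted p = 0.383), without lung 4 (adjusted p = 0.0595) and without kidney 1 and kidney 2 together (0.142). No member of miR-221 and miR-222 (3 tested, median -0.44), of miR-148 and miR-152 (6 tested, median -0.38), of the imprinted DLK1-DIO3 cluster (4 of 47 detected were tested, median -1.23) or of miR-210, induced by low oxygen, was called in the main fit of the 2 organs (TMM scale, low counts filtered out, all 10 libraries). cfa-miR-210 was called for lung with library size alone (1.48, adjusted p = 3.78e-04) and without kidney 5 (adjusted p = 0.0439), and cfa-miR-148a with library size alone (1.22, adjusted p = 2.90e-04) and without kidney 4 (adjusted p = 0.0253). In the fit over all 16 tissues 4 of 43 tested miRNAs of the DLK1-DIO3 cluster were called for kidney. Without kidney 1 and kidney 2 together, cfa-miR-411 (adjusted p = 0.00148), cfa-miR-381 (0.0119) and cfa-miR-410 (0.0175) were called for kidney. cfa-miR-411 was also called without kidney 1 (0.0203) or kidney 2 (0.0407). cfa-miR-410 was also called in DESeq2 (0.0493) and without kidney 1 (0.0413) or lung 5 (0.0282). In the DLK1-DIO3 cluster the most abundant tested member, cfa-miR-127, had 172, 273, 251, 454 and 449 RPM in lung and 109, 150.5, 624, 838 and 514 RPM in kidney (log2 fold change -1.52, SE 0.60, adjusted p = 0.0519), with overlap, and it was called for kidney without kidney 1 (adjusted p = 0.0103), kidney 2 (0.0166), both of them (1.52e-04) or lung 4 (0.0484), with no filter on low counts (0.0277), in DESeq2 (0.0297) and with the reads of cfa-miR-10b taken out of the library size (0.0485). Of the miR-424 cluster 1 of 6 was called for kidney, hsa-miR-424-5p (-1.06, SE 0.35), and it lost the call with library size alone (-0.15, adjusted p = 0.781), with the reads of cfa-miR-10b taken out of it (adjusted p = 0.0605), in the fit over all tissues (0.176), without kidney 2, kidney 3 or lung 3 (adjusted p 0.0541 to 0.061) and without kidney 1 and kidney 2 together (0.0679). cfa-miR-21, raised in injured tissue, had 15709, 15228, 29151, 17528 and 27252 RPM in lung and 16239, 16043, 3132, 5139 and 2491 RPM in kidney (log2 fold change 0.49, SE 0.41, adjusted p = 0.319). Kidney 1 and kidney 2 lay within the lung range and kidney 3 to 5 below it. Without kidney 1 and kidney 2 the log2 fold change was 1.44 (adjusted p = 3.34e-04), and with library size alone it was 1.28 (0.0396).

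Markers of liver and testis were low in both organs. Those of liver (miR-122) reached at most 4.47 RPM summed in a lung library and 0.917 RPM in a kidney library, and those of testis 13.6 and 2.59 RPM. The summed brain list was 4.65 to 15.9 RPM in lung and 37.6 to 140 RPM in kidney, and its 1 tested member, cfa-miR-9, was called for kidney. The summed striated muscle list was 82.9 to 228 RPM in lung and 95.7 to 259 RPM in kidney, with 1 of 2 tested members, cfa-miR-133a, called for kidney (-0.78, SE 0.29, adjusted p = 0.0375). That call was lost without any one of kidney 1, kidney 2, lung 1, lung 2, lung 4 or lung 5 (adjusted p 0.0688 to 0.148), and with library size alone the value was 0.11. Tubule miRNAs were thus higher in kidney, and endothelial and leukocyte miRNAs were higher in lung. The epithelial miR-200 family was split, with 3 of its 8 tested members called for lung, 1 for kidney and 4 not past the threshold. What share of airway the lung pieces held is not stated.

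Abundant miRNAs closest to equal were cfa-miR-103 (-0.04, SE 0.11), cfa-miR-26b (-0.05, SE 0.12), cfa-miR-191 (-0.09, SE 0.21), cfa-miR-26a (0.10, SE 0.28) and cfa-miR-451 (-0.13, SE 0.54), among those of at least 1000 RPM in both organs. The 95% interval for cfa-miR-103 ran from -0.28 to 0.21. Such small values do not show equality where the SE is large, as for cfa-miR-451, and they belong to the TMM scale. In RPM cfa-miR-103 had 2747, 2768, 3450, 2456 and 2674 in lung and 1683, 2000, 1233, 1559 and 1124 in kidney without overlap, and with library size alone cfa-miR-103 (0.89), cfa-miR-26b (0.89), cfa-miR-191 (0.85) and cfa-miR-26a (1.09) were called higher in lung.

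Over the 241 miRNAs tested, the 5 lung and 5 kidney values did not overlap in RPM for 94 with lung higher (39.0%) and 18 with kidney higher (7.47%), and in TMM-scaled CPM for 45 (18.7%) and 54 (22.4%). Among the called miRNAs all 54 of lung and 18 of the 69 of kidney were without overlap in RPM, and 45 and 53 in TMM-scaled CPM. The TMM fold passed 2 for 41 of the lung calls and 57 of the kidney calls, and passed 8 for 10 and 16. In a comparison of detection, 472 miRNAs had at least 1 read in a lung library and 509 in a kidney library, and with every library thinned to the smallest these became 457 and 467. Of the 20 miRNAs seen only in lung, 16 had no more than 3 reads in all, and the same held for 39 of the 57 seen only in kidney.

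The ratio of the 2 arms of a hairpin does not depend on how libraries are scaled. For 98 hairpins with at least 10 reads of the arms together in every library the log2 ratio of 5p to 3p reads was compared by a two-sided exact permutation test. None (0.0%) passed an adjusted p under 0.05, and 23 had an unadjusted p under 0.05. The smallest p that 5 against 5 allows is 0.00794. It was reached by the 14 hairpins (14.3%) whose ratios did not overlap, which gave an adjusted p of 0.0556, and 16 such hairpins would have been needed to pass. In 12 of the 14 the ratio leaned more to 5p in lung and in 2 more to 5p in kidney. In 10 of the 14 an arm had fewer than 10 reads in some library, so that the 0.5 reads added to each arm and the depth enter the ratio. The other 4, chosen after their values were seen, are miR-1307, miR-181a, miR-181c and miR-30d.

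The log2 ratio of 5p to 3p reads of miR-1307 was 1.38 ± 0.69 in lung and 3.58 ± 0.67 in kidney (SD, n = 5 each, difference -2.19, exact permutation p = 0.00794), so the 5p arm named above as higher in kidney outweighed its partner more there. The partner, cfa-miR-1307, did not pass the threshold (log2 fold change -0.55, SE 0.27, adjusted p = 0.105). For miR-181a the ratio was 9.95 ± 0.48 in lung and 8.83 ± 0.38 in kidney (difference 1.12), for miR-181c 4.88 ± 0.21 in lung and 4.36 ± 0.13 in kidney (0.52) and for miR-30d 8.10 ± 0.21 in lung and 7.17 ± 0.28 in kidney (0.93), all of them with the 5p arm in excess and more so in lung. For miR-126, in contrast, the ratio was 2.87 ± 0.16 in lung and 2.94 ± 0.05 in kidney (difference -0.08, exact permutation p = 0.286), and the ranges overlapped. For 48 of the 98 hairpins the difference was smaller than 0.5.

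Set among all 16 tissues by the median RPM, a description with no test, the differences were of several kinds. For 9 of the 54 lung calls lung had the highest median of the 16 tissues, and for 34 it was among the top 3. For 24 of the 54, kidney was among the lowest 3. Kidney was highest for 9 of its 69 calls and among the top 3 for 23, and lung was among the lowest 3 for 8 of the 69. These ranks are in RPM, so they carry the large share of cfa-miR-10b in kidney and in other tissues rich in it. The calls were picked for a difference between lung and kidney, which by itself lifts the higher organ and lowers the other. The same ranks were not counted over all tested miRNAs. The counts therefore do not show how typical of lung or kidney the calls are.

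Lung was highest for both arms of miR-126, with a median of 46480 RPM for cfa-miR-126 against 39076 in heart, the next tissue. It was also highest for cfa-miR-195 (2396 RPM against 1349 in bone marrow), cfa-miR-24 (1981 against 1312 in jejunum), cfa-miR-23a (4001 against 2267 in skeletal muscle) and cfa-miR-34a (172 against 53.6 in sciatic nerve). Kidney was highest for cfa-miR-204 (7234 RPM against 5411 in brain), for cfa-miR-10b (445638 against 416863 in skeletal muscle) and, by a narrow margin, for cfa-miR-196a (473 against 465 in sciatic nerve). In other cases the lower organ was low among all tissues. cfa-miR-375 was at 1315 RPM in lung, with 6 tissues above it, and lowest of all in kidney (9.72 RPM), while pancreas had 148274 RPM. Kidney also had the lowest median for cfa-miR-150 and cfa-miR-155, whose highest medians were in ileum. For cfa-miR-378 lung was second lowest (1150 RPM), and kidney (14852 RPM) had 7 tissues above it, heart the highest (64685 RPM). cfa-miR-192 and cfa-miR-194, high in kidney against lung, were higher still in jejunum.

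**Figure D5:**
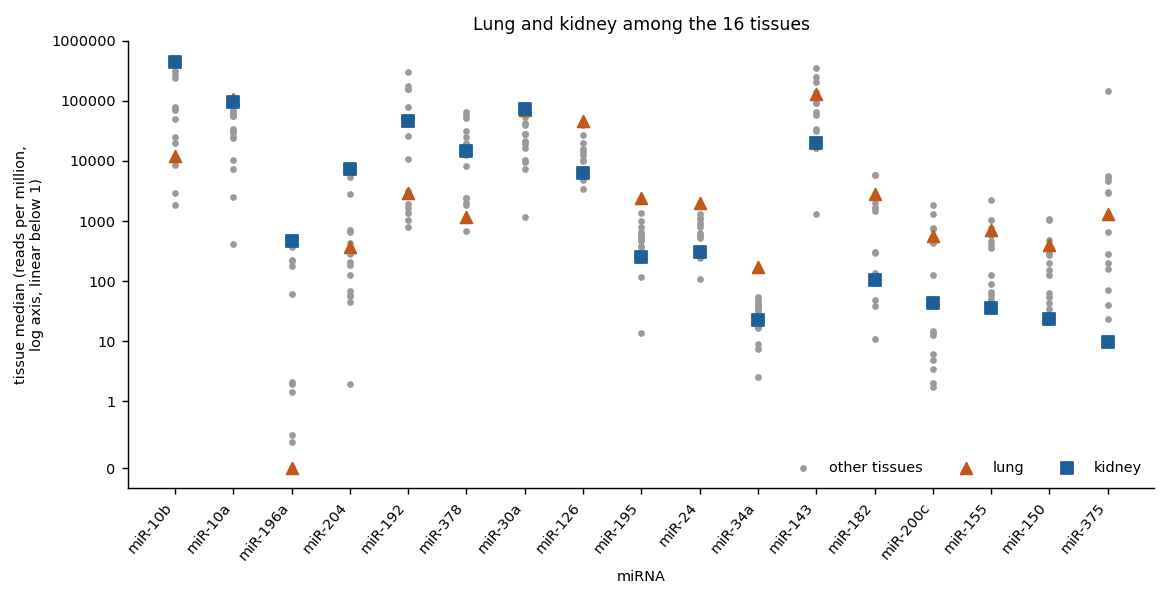
Points are tissue medians in RPM (log axis, linear below 1) for 17 miRNAs, with lung as triangles, kidney as squares and the other 14 tissues in grey. Lung is at the top for cfa-miR-10a, cfa-miR-126, cfa-miR-195, cfa-miR-24 and cfa-miR-34a. Kidney is at the top for cfa-miR-10b, cfa-miR-196a, cfa-miR-204 and cfa-miR-30a and at the bottom for cfa-miR-150, cfa-miR-155 and cfa-miR-375. For cfa-miR-30a kidney (72089 RPM) and lung (71735 RPM) are nearly level.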

How the data were processed

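After adaptor clipping, the authors used OSA to place reads on the CanFam3.1 genome without mismatches, left out reads with more than 10 genomic locations, and counted those on miRNA loci of dog, rat or human annotation. They deposited a count per miRNA and sample and the total of reads on miRNAs. miRNAs not listed for a sample were set to 0, and 1 sample name that matched no label was not used. RPM was recomputed as count over deposited total. The deposited RPM column was not used.

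Lung and kidney (5 samples each) were compared with edgeR 4.0.16 (R 4.3.3), by TMM, filterByExpr and the quasi-likelihood test, with Benjamini-Hochberg adjustment over all 241 miRNAs tested. Arm ratios took 0.5 reads added to each arm and two-sided exact permutation tests. Tables were handled with pandas 2.3.3 and numpy 2.4.6 under Python 3.11.15, exact tests with scipy 1.17.1 and plots with matplotlib 3.10.9. The procedures were tested on simulated data. Libraries of 1 organ differed by more than sampling noise (chi-square per degree of freedom of at least 71.5). Nothing in the labels ties samples to dogs, so p-values measure the spread between these samples. The RPM that a count of 0 allows covers counting error only, and PCR copies are not separate molecules.

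The organs, miRNA lists and alternatives were chosen with earlier results of these data known. Named miRNAs were the 10 largest differences each way without overlap in RPM (at least 100 RPM in the higher organ, and more than 3 reads in some library of the lower one, else a lower bound), the 10 most abundant per organ, up to 4 of each list by level with others of at least 100 RPM, the 5 closest to equal of at least 1000 RPM in both, and the 5 largest arm differences past the threshold, of which there were none. Other names are marked. The alternatives were DESeq2 1.42.0, DESeq2 size factors, library size, filters on low counts, all tissues in 1 fit, thinning, a rank-sum test, a fold limit and each sample left out. A gene table of the assembly UU_Cfam_GSD_1.0, another build, gave neighbouring genes only. Mature sequences were not used here.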

Additional observations from a re-analysis of the deposited data

Results flagged for a closer look

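In 6 of 195 groups of 5 libraries checked, 1 library stood far from the other 4, with the gap to the nearest one above 0.71 of the group's range (Dixon's limit for 5 values). Chance alone gives this in about 1 in 20 groups.

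Kidney 1 stood apart in 3 of them. Its cfa-miR-19b was 522 RPM, against 102 to 179 RPM in the other kidney libraries, its cfa-miR-98 was 1632 RPM against 845 to 965 RPM, and its cfa-miR-99b was 714 RPM against 953 to 1035 RPM. In kidney 2 hsa-miR-125b-2-3p was 575 RPM, against 401 to 449 RPM in the other 4. Lung 5 was high in cfa-miR-148b, with 829.5 RPM against 319 to 459 RPM, and in cfa-miR-221, with 988 RPM against 559 to 650.0 RPM. Of these 6 miRNAs none was called between lung and kidney in the main edgeR fit (TMM, filterByExpr, all 10 libraries). cfa-miR-98 was called for kidney without kidney 2 (adjusted p = 0.036) or without lung 5 (0.0272), and cfa-miR-221 without kidney 1 (0.00529), kidney 2 (0.0459) or lung 5 (0.0329), without kidney 1 and kidney 2 together (7.29e-04) and with libraries thinned to the smallest (0.0458). cfa-miR-148b was called for kidney without kidney 1 and kidney 2 (adjusted p = 0.00548). cfa-miR-99b was called for lung with library size alone (adjusted p = 4.99e-06), with cfa-miR-10b taken out of it (0.00826), in DESeq2 (0.0195), with its size factors in edgeR (0.0298), with libraries thinned (0.035), with no filter on low counts (0.0283) and without kidney 3 (0.0484), kidney 5 (0.0162), lung 2 (0.034) or lung 3 (0.0392).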

How the results depend on the processing

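The number of miRNAs higher in lung was 54 and in kidney 69. With library size alone they were 115 and 27, with the exact rank-sum test on RPM 105 and 21, and with a ratio of mean RPM above 5 asked as well 31 and 15. Library size leaves the share of cfa-miR-10b in the scale, by construction, and with its reads taken out of the library size, an alternative added after the values were seen, the counts were 70 and 66. The share of calls that were for lung was 43.9% on the TMM scale, 81.0% with library size alone and 51.5% with cfa-miR-10b taken out. The other alternatives gave 47 to 76 and 51 to 96, and none of the 54 or 69 was called in the other direction in any of the fits. Leaving out each library gave 54 to 66 for lung and 62 to 79 for kidney. No hairpin's arm ratio passed under any alternative, leaving out each library included.

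Of 64 called miRNAs named by the rule, 43 kept their call in all 19 alternative fits. The rank-sum test and the fold limit are not among these 19. Some named miRNAs changed side with library size alone and were called on the TMM scale or with library size. They were cfa-let-7d (0.97), cfa-let-7g (0.75), cfa-miR-103 (0.89), cfa-miR-10a (0.11), cfa-miR-125b (0.80), cfa-miR-133a (0.11), cfa-miR-191 (0.85), cfa-miR-26b (0.89), cfa-miR-30e (0.55), cfa-miR-454 (0.71), cfa-miR-99a (0.81), hsa-miR-125b-2-3p (0.53) and hsa-miR-181a-3p (0.41). Values that changed side without a call on either scale, such as cfa-let-7c (-0.57 to 0.41), are not listed. Without kidney 1 and kidney 2, rno-miR-21-3p changed from -0.86 to 1.26. The cause was not tested. For at least 10 reads, 288 miRNAs were detected in lung and 345 in kidney.

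No paired analysis was possible because the labels do not say which libraries came from the same dog. Of 529 miRNAs detected, 241 had enough reads to be tested, and a count of 0 allows up to 3.49 RPM in the smallest lung library. Reads shared by near-identical miRNAs, RNA integrity per sample and the cell makeup of the pieces were not tested.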

Other observations

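A group noticed after the values were seen was the cluster MIR532, MIR188, MIR500, MIR362, MIR660 and MIR502, neighbours inside CLCN5, the gene of a chloride transporter of the kidney tubule, in the RefSeq table. Of 12 detected miRNAs of the cluster 8 were tested, and all 8 were called higher in kidney on the TMM scale (median log2 fold change -1.32, against 28.6% of all tested miRNAs called for kidney). With library size alone none was called (median -0.36), and in RPM the summed level was 1052 to 1879 in lung and 1472 to 2248 in kidney, which overlapped. The most abundant, cfa-miR-500, had 521, 433, 810.2, 495 and 575 RPM in lung and 623, 801, 707, 823 and 575 RPM in kidney, and cfa-miR-532 had 401, 348, 498, 285 and 601 and 538, 721, 452, 581 and 517 RPM.

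Other miRNAs outside the rule for names, chosen after their values were seen, were also far apart. Both arms of miR-874, whose gene lies inside KLHL3, were higher in kidney, cfa-miR-874 with 24.8, 44.4, 139, 138 and 140.2 RPM in kidney and 9.30, 9.68, 22.1, 15.9 and 18.1 RPM in lung (log2 fold change -3.78, SE 0.60, adjusted p = 2.18e-04), and kidney 1 and kidney 2 were lowest of the kidney libraries. cfa-miR-31 showed the other order within kidney, with 662, 743, 157, 179 and 49.95 RPM in kidney and 38.4, 58.8, 122, 64.7 and 67.3 RPM in lung (log2 fold change -3.12, SE 0.56, adjusted p = 4.89e-04), so that kidney 5 fell within the lung range. hsa-miR-3607-3p had 72.5, 114, 15.6, 30.9 and 20.3 RPM in kidney and 12.8, 7.45, 18.01, 7.95 and 6.22 RPM in lung (log2 fold change -3.07, SE 0.47, adjusted p = 1.51e-04), again highest in kidney 1 and kidney 2.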
